A study of Mus musculus with 6 samples.

Results

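The genes described here encode the class I histone deacetylases Hdac1, Hdac2 and Hdac3 and subunits of the corepressor complexes that carry them: Ncor1 and Tbl1xr1 of the NCoR complex, Rcor1 of the CoREST complex, Mta2 of the NuRD complex and Sin3a of the SIN3 complex. They were chosen by gene symbol as deacetylases and corepressor subunits, several of whose complexes are known to bind inositol tetrakisphosphate. The 8 symbols each matched 1 of the 23282 entries per library. All 8 passed the filter on low counts, among 10475 genes tested. The cells were regulatory T cells (Treg), a CD4 T cell lineage that holds immune responses in check, taken from spleen of C57BL/6 mice by flow cytometric sorting. Their RNA was sequenced as 3′ end tags without stimulation. The groups were wild type Treg and Treg with a conditional knockout of inositol polyphosphate multikinase (IPMK cKO), with 3 libraries each. The Cre driver, the deleted part of Ipmk and the age of the mice were not given in the sources used here. The labels call the libraries biological replicates without naming animals, so p-values measure only how far these samples differ, part of which may be technical.

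Class I histone deacetylases remove acetyl groups from histone tails and act in multi-subunit complexes that transcription factors bring to the genes they repress. In several of these complexes, structural work placed inositol tetrakisphosphate in the contact between the deacetylase and the SANT domain of its corepressor, where higher inositol phosphates raise the enzyme's activity. IPMK is a kinase that makes inositol tetrakisphosphate and inositol pentakisphosphate, and in T cells the deacetylase complexes take part in silencing lineage genes. Sin3a joins its deacetylase through a domain of another kind. Messenger RNA reports neither complex assembly nor enzyme activity.

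Total counts ran from 7464546 to 8980395 per library, of which 5287300 to 7130660 lay outside the ribosomal RNA precursor Rn45s. Ipmk had 129, 77 and 99 counts in wild type replicates 1 to 3, against 3, 21 and 0 in the same order in IPMK cKO, with no overlap between the groups. Its log2 fold change was −3.51 (SE 1.75, edgeR adjusted p = 0.9999), and −5.85 without IPMK cKO replicate 2. IPMK cKO replicate 1 stood apart: among the 500 genes with the highest levels, 16 differed there by over 4-fold from the other libraries' median, and 0 did so in any other library. The Treg transcription factor Foxp3 had 86, 590 and 279 counts in wild type against 605, 551 and 811 in IPMK cKO. Ikzf2 (Helios), the most abundant of 6 Treg markers, was at 843, 1635 and 1172 CPM (CPM, counts scaled to a common library size by TMM) against 794, 1168 and 713 CPM. The 6 markers summed to 1797 to 2672 CPM in wild type and to 1807 to 2274 CPM in IPMK cKO. The T cell receptor chain Cd3d, the most abundant T cell marker, was at 403 to 918 CPM. Defining markers of CD8 T cells (Cd8a), B cells (Pax5) and natural killer cells (Ncr1, Klre1) had no count in any library. Summed over their lists, 5 B cell markers reached at most 14.2 CPM in wild type against 13.1 CPM in IPMK cKO, led by Cd79b. Sums for 7 myeloid markers, led by Cd68, ran from 0.602 to 8.20 CPM in wild type and from 0 to 14.2 CPM in IPMK cKO. For 5 erythroid markers, led by Hba-a1, they ran from 0.120 to 56.3 CPM in wild type and from 0 to 16.7 CPM in IPMK cKO. For 2 CD8 T cell markers, led by Cd8b1, the sums were 7.82 to 12.2 CPM and 2.11 to 8.62 CPM. For 4 natural killer cell markers, led by Klrb1c, they were 0.104 to 7.94 CPM and 0 to 0.101 CPM. The part of these cells in the values below was not tested.

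None of the 8 genes was called between IPMK cKO and wild type at an adjusted p of 0.05 in edgeR (quasi-likelihood test), where 0% of the 10475 genes tested were called. Each of the 8 had an edgeR adjusted p of 0.9999, and DESeq2 gave 0.9995 for each, calling 0.0288% of the 10412 genes to which it gave an adjusted p. At an unadjusted p under 0.05 there was 1 member, Tbl1xr1, against 268 genes or 2.56% of all those tested. The groups did not overlap for 2 members, Tbl1xr1 (lower in IPMK cKO) and Rcor1 (higher), beside 10.4% of all genes tested in either direction, 4.74% higher and 5.66% lower. Estimates were above 0 for 5 members and below 0 for 3, with a median log2 fold change of +0.10, where the median over all genes tested was +0.03. The common biological coefficient of variation over all genes tested was 0.809. Among the members the SE ran from 0.27 (Ncor1) to 0.37 (Tbl1xr1), apart from Hdac3 at 1.62, beside a median SE of 0.68 over all genes tested.

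**Figure D1:**
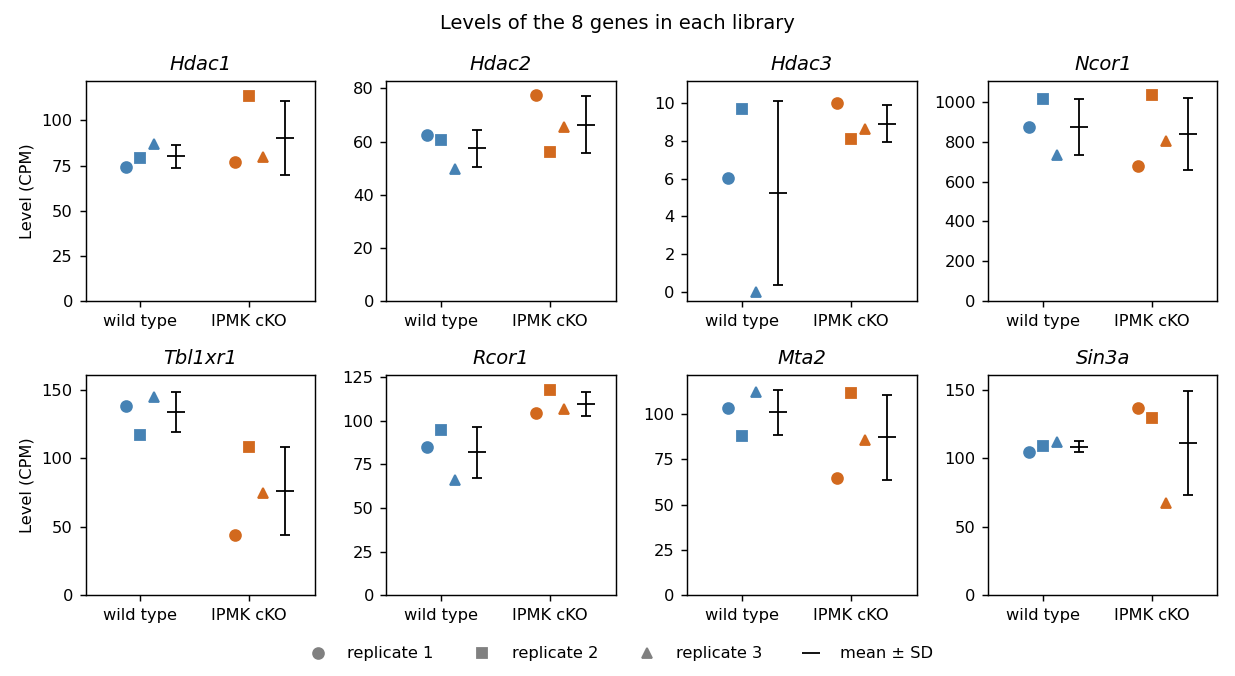
Level of each gene in CPM on a linear axis (y) for the 3 wild type (blue) and 3 IPMK cKO (orange) libraries, with the group mean and SD in black. The groups separate for Tbl1xr1 and Rcor1 and overlap for the other 6 genes, and Hdac3 has no count in wild type replicate 3.

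Hdac1 and Hdac2, the paired catalytic subunits shared by the SIN3, NuRD and CoREST complexes, had overlapping levels in the 2 genotypes. Hdac1 had 615, 580 and 835 counts in wild type against 547, 870 and 784 counts in IPMK cKO replicates 1 to 3. On the CPM scale these were 74.0, 79.3 and 86.8 in wild type against 77.0, 114 and 79.6 in IPMK cKO. IPMK cKO replicate 2 was the highest of the 6 libraries and the other 2 IPMK cKO libraries lay inside the wild type range. Group means were 80.0 ± 6.46 CPM and 90.1 ± 20.5 CPM (SD, n = 3 each), with a log2 fold change of +0.17 (SE 0.32, 95% interval −0.54 to 0.88). Without IPMK cKO replicate 2 the Hdac1 estimate was −0.06, so its direction rested on that library.

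Hdac2 had 519, 443 and 477 counts in wild type against 550, 430 and 644 in IPMK cKO. The levels were 62.4, 60.5 and 49.6 CPM in wild type against 77.4, 56.2 and 65.4 CPM in IPMK cKO, again with overlapping groups. The log2 fold change was +0.20 (SE 0.35, 95% interval −0.57 to 0.98). A 2-fold change of either gene in either direction lay outside these intervals. The estimate for Hdac2 was +0.07 without IPMK cKO replicate 1, its highest library.

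Hdac3, the catalytic subunit of the NCoR complex, was the least abundant of the 8. It had 50, 71 and 0 counts in wild type against 71, 62 and 85 in IPMK cKO. The missing value belongs to wild type replicate 3, a library of 8246993 counts, where a count of 0 allows up to 0.312 CPM (3 counts). Such limits cover counting error only, because reads lacking molecular identifiers are not separate molecules. The other 5 libraries lay between 6.02 and 9.99 CPM. Group means were 5.24 ± 4.90 CPM in wild type against 8.91 ± 0.976 CPM in the cKO group (SD, n = 3 each). The estimate of +0.77 (SE 1.62, 95% interval −2.79 to 4.32) became +0.18 without wild type replicate 3, so the size of the difference rested on 1 library. Zeros of this kind were not particular to Hdac3. In wild type replicate 3, 5 of the 6033 genes with at least 50 counts in every other library had none: Taf1a, Rtn4ip1, Bcdin3d, Hdac3 and Trmt10b. The same count was 82 of 6784 genes in IPMK cKO replicate 1, 48 of 6222 in wild type replicate 1, 30 of 6144 in IPMK cKO replicate 3 and 0 in the libraries numbered 2. These 4 other genes were named after their values were seen.

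Within the deacetylase pool, Hdac2 made up 45.8%, 43.3% and 36.4% of the Hdac1 and Hdac2 counts in wild type against 50.1%, 33.1% and 45.1% in IPMK cKO. The exact (Clopper-Pearson) 95% intervals, which cover counting error only, were 33.7% to 39.0% in wild type replicate 3 and 30.5% to 35.7% in IPMK cKO replicate 2. They were 47.1% to 53.1% in IPMK cKO replicate 1. The group means of 41.8% ± 4.88 and 42.8% ± 8.76 (SD, n = 3 each) differed by less than the spread between replicates. Hdac3 took 4.22%, 6.49% and 0% of the counts of the 3 deacetylases in wild type against 6.08%, 4.55% and 5.62% in IPMK cKO. In wild type replicate 3 the limit of 3 counts is a Hdac3 share of 0.229%, and the exact 95% interval reaches 0.281%. The summed level of Hdac1, Hdac2 and Hdac3 was 142, 150 and 136 CPM in wild type against 164, 178 and 154 CPM in IPMK cKO. All 3 IPMK cKO sums were above the wild type ones, where 10.4% of all genes tested did not overlap between the groups. Each of the 3 genes alone overlapped, and in 1 wild type library the sum holds no Hdac3. This sum was formed after the values were seen and carries no test.

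Among the NCoR subunits, Ncor1, the scaffold that binds Hdac3 and nuclear receptors, was by far the most abundant of the 8 genes. It had 7260, 7429 and 7052 counts in wild type against 4814, 7902 and 7906 in IPMK cKO. In CPM these were 874, 1015 and 733 against 677, 1032 and 802, which placed Ncor1 above 99.2% of the genes tested. The groups overlapped, IPMK cKO replicate 1 being the lowest library and IPMK cKO replicate 2 the highest. The log2 fold change was −0.06 (SE 0.27, 95% interval −0.66 to 0.54), and +0.06 without IPMK cKO replicate 1. Ncor1 lies on chromosome 11 from 62316426 to 62458541 on the minus strand of mm10 (GENCODE M21), and Ttc19 on the opposite strand covers its 3′ end. Counting was not stated to use strand, so reads of the pair cannot be told apart there. Ttc19 itself was counted at 0.602 to 31.1 CPM.

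Tbl1xr1 encodes a WD40 protein of the same complex that helps to exchange corepressors for coactivators. It had 1152, 858 and 1395 counts in wild type against 314, 830 and 738 in IPMK cKO, or 139, 117 and 145 CPM against 44.2, 108 and 74.9 CPM. All 3 IPMK cKO values were under all 3 wild type values, with IPMK cKO replicate 1 the lowest and replicate 2 just under the lowest wild type value. Means were 134 ± 14.6 CPM and 75.8 ± 32.1 CPM (SD, n = 3 each), a ratio of 0.567. The log2 fold change was −0.82 (SE 0.37, 95% interval −1.63 to −0.0041; edgeR unadjusted p = 0.0490, adjusted p = 0.9999). It was −0.55 without IPMK cKO replicate 1, −1.19 without IPMK cKO replicate 2. With both libraries numbered 1 left out it was −0.52. The gene lies on chromosome 3, from 22076652 to 22216594 on the plus strand of mm10.

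In the CoREST complex, Rcor1 encodes the scaffold that joins Hdac1 or Hdac2 to the histone demethylase Kdm1a. Its counts were 707, 692 and 635 in wild type against 743, 902 and 1055 in IPMK cKO. Levels of 85.1, 94.6 and 66.0 CPM in wild type stood against 105, 118 and 107 CPM in IPMK cKO. All 3 IPMK cKO libraries were above all 3 wild type libraries, and the IPMK cKO libraries were close to each other. The means were 81.9 ± 14.5 CPM and 110 ± 7.06 CPM (SD, n = 3 each), a ratio of 1.34 with a log2 fold change of +0.42 (SE 0.31, 95% interval −0.26 to 1.10; edgeR unadjusted p = 0.198). Over the libraries left out in turn the estimate ran from +0.29 to +0.53. Rcor1 is on chromosome 12, from 111039351 to 111115901 on the plus strand of mm10.

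Mta2, the NuRD subunit whose ELM2 and SANT domains hold Hdac1 and Hdac2, had 856, 641 and 1078 counts in wild type against 459, 853 and 843 in IPMK cKO. Its levels were 103, 87.6 and 112 CPM against 64.6, 111 and 85.5 CPM. IPMK cKO replicate 1 was the lowest library and the groups overlapped. The log2 fold change was −0.21 (SE 0.33, 95% interval −0.94 to 0.52), or −0.04 without that library. Mta2 is on chromosome 19, from 8941875 to 8952303 on the plus strand of mm10.

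Sin3a, the scaffold of the SIN3 complex, had 867, 797 and 1076 counts in wild type against 971, 988 and 662 in IPMK cKO. The wild type libraries lay close together at 104, 109 and 112 CPM, whereas IPMK cKO libraries lay on both sides of them at 137, 129 and 67.2 CPM. The means were 108 ± 3.83 CPM and 111 ± 38.1 CPM (SD, n = 3 each). Its log2 fold change of +0.03 (SE 0.34, 95% interval −0.72 to 0.79) was +0.29 without IPMK cKO replicate 3 and became −0.15 when replicate 1 of that group was left out. Sin3a is on chromosome 9, from 57072040 to 57128366 on the plus strand of mm10, where the antisense gene Man2c1os covers its 3′ end. Man2c1os had 59 counts in wild type replicate 3 and 0 in each other library. Hdac1 (chromosome 4, 129516104 to 129542713, minus strand) and Hdac2 (chromosome 10, 36974544 to 37001889, plus strand) overlapped no other annotated gene on mm10.

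**Figure D2:**
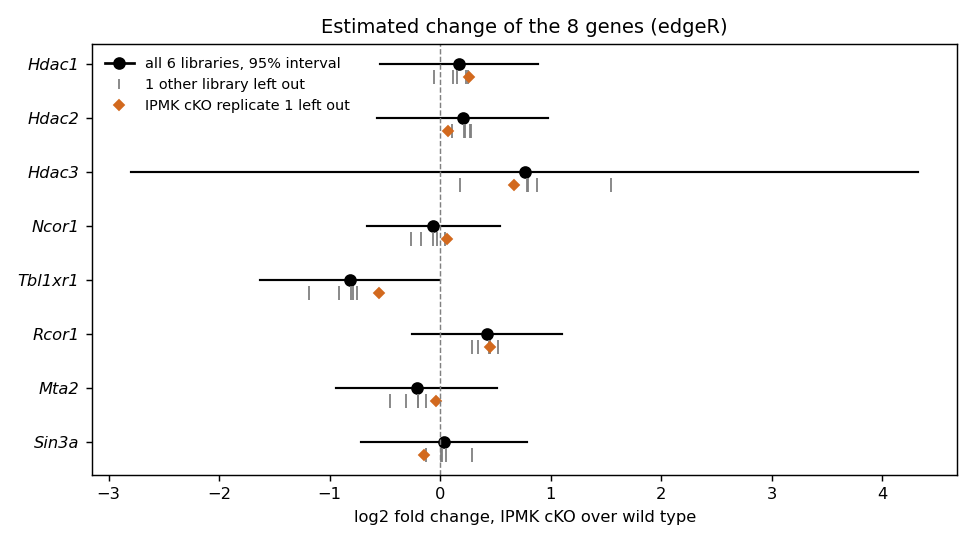
Log2 fold change of IPMK cKO over wild type (x) for each gene (y), with the edgeR estimate and 95% interval from all 6 libraries in black and the estimates with 1 library left out below each. Hdac2, Hdac3, Tbl1xr1, Rcor1 and Mta2 keep their side of 0 in every such fit, Sin3a, Ncor1 and Hdac1 do not, and the interval of Hdac3 is the widest.

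The group means gave an order in wild type of Ncor1, Tbl1xr1, Sin3a, Mta2, Rcor1, Hdac1, Hdac2 and Hdac3. A 3′ tag library yields its reads from the transcript end, so CPM was compared between genes without division by length. Ncor1 was 6.54-fold above Tbl1xr1, and Hdac2 was 11.0-fold above Hdac3, with no overlap between libraries at either step. The Hdac3 mean in the latter step includes the count of 0 in wild type replicate 3, which enlarges that ratio. Neighbours from Sin3a to Hdac1 overlapped in their libraries, so their order is not resolved. By group mean in IPMK cKO, Ncor1 was again at the top, Tbl1xr1 stood at rank 6, and Hdac2 and Hdac3 came last. In IPMK cKO replicate 1, however, Hdac2 at 77.4 CPM lay above Mta2 and Tbl1xr1 and just above Hdac1 at 77.0 CPM. Over the 3 IPMK cKO libraries all neighbours from Sin3a to Hdac2 overlapped. Hdac2 was 7.45-fold above Hdac3 by group mean in IPMK cKO, with no overlap between libraries.

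Spread between the 6 libraries differed among the members. The coefficient of variation was 17.2% for Hdac1, 17.1% for Ncor1, 19.2% for Rcor1 and 19.6% for Mta2, below the lower quartile of 20.6% for the top 20% of genes by level, to which these 4 belong. Sin3a at 22.1% lay below the median of 28.2% in that bin. Tbl1xr1 at 37.0% lay above it. Hdac2, in the next bin, had 15.1% where the median was 37.0%. Hdac3, in the least abundant bin, had 52.9% against a median of 100%.

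Across the 6 libraries the members did not vary as 1 block. Pearson correlations of log2 CPM over the 28 pairs ran from −0.91 to 0.90, as a description over 6 libraries that share 2 genotypes and unequal depth. Tbl1xr1 and Mta2 were the most alike pair (r = 0.90), both lowest in IPMK cKO replicate 1. Mta2 and Hdac2 were the most opposed (r = −0.91), and Hdac1 and Hdac2 had r = −0.50. The gene of at least 20 CPM most like Hdac1 was Ldah (r = 0.97) among 5941 genes, and that most like Hdac3 was Kcmf1 (r = 0.985) among 5942, each over only 6 libraries. Hdac3 had no count in wild type replicate 3 and 6.02 to 9.99 CPM in the others, so its correlations rest largely on that library.

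Paralogues were set beside the members in 5 families. This comparison was added after the values were seen. Tbl1xr1 supplied 78.9%, 77.3% and 93.2% of the Tbl1xr1 and Tbl1x counts in wild type against 55.6%, 79.4% and 77.3% in IPMK cKO. The groups overlapped, and Tbl1x itself was at 27.4 ± 14.6 CPM and 28.5 ± 6.66 CPM (SD, n = 3 each). Rcor1 took 62.3%, 84.0% and 81.7% of the RCOR counts in wild type against 84.9%, 88.1% and 89.9% in IPMK cKO. The lowest IPMK cKO share lay just above the highest wild type share. The share uses the same Rcor1 counts as the level, and the low share in wild type replicate 1 went with 425 counts of Rcor3 there. Rcor3 had most of the remainder, and Rcor2 had at most 19 counts in any library.

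In the MTA family, Mta2 made up 48.4%, 49.1% and 51.8% of the counts in wild type against 80.1%, 59.4% and 42.6% in IPMK cKO. The high share in IPMK cKO replicate 1 went with 1 count of Mta3 and 113 of Mta1 there, beside a Mta2 level that was itself the lowest. Sin3a and Sin3b, alternative scaffolds of the SIN3 complex, were nearly equal in wild type, with Sin3a at 50.5% ± 4.57. The Sin3a shares in IPMK cKO were 72.3%, 56.8% and 37.7%, spread on both sides of the wild type values. Hdac8, the class I deacetylase that works outside these complexes, had 54, 88 and 41 counts in wild type against 280, 69 and 0 in IPMK cKO. It took 19.3% of the class I counts in IPMK cKO replicate 1 and at most 7.45% elsewhere.

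**Figure D3:**
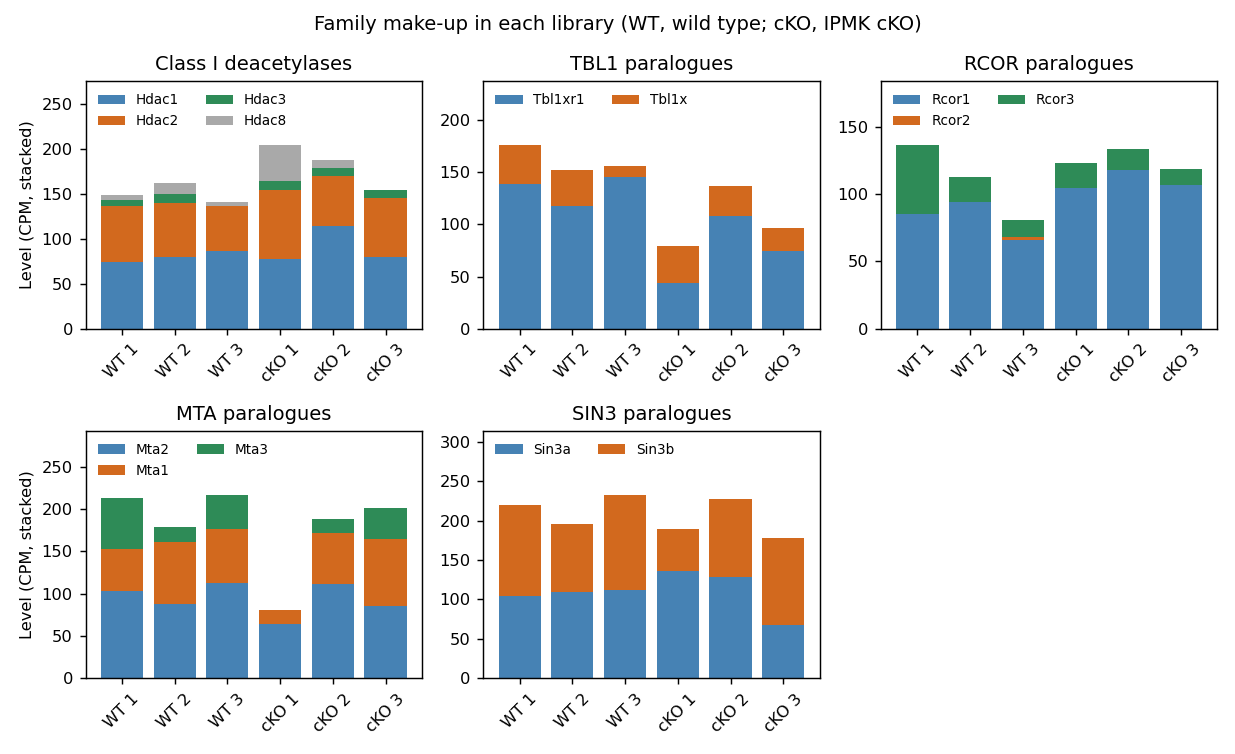
Stacked levels in CPM (y, from 0) of members and their paralogues in the 6 libraries (x), for the class I deacetylases and the TBL1, RCOR, MTA and SIN3 families. Tbl1xr1 makes up most of its family in every library, and IPMK cKO replicate 1 has the smallest TBL1 and MTA totals.

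Of 64 other genes of these complexes, of further deacetylases and of histone acetyltransferases, 60 were tested, of which 0 were called higher and 0 lower by edgeR. The groups did not overlap for 3 of them, 2 higher and 1 lower, or 5% beside 10.4% of all genes tested. Their median log2 fold change was +0.10, with 38 estimates above 0 and 22 below. Over all genes tested 51.8% of estimates were above 0. Without IPMK cKO replicate 1 the split was 33 above and 29 below among 62 tested.

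The other NCoR genes, 3 of 3 tested, had estimates above 0 and a median of +0.58. Gps2, a small core subunit, had +0.58 (SE 0.43) with all libraries and −0.11 without IPMK cKO replicate 1. Without that library the list had 1 estimate above 0 and 2 below, with a median of −0.11.

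For SIN3, 14 of 16 listed genes were tested, 9 with estimates above 0 and 5 below (median +0.19). Arid4a and Arid4b, the chromatin-binding subunits with the smallest p-values, were at 485 ± 157 against 723 ± 214 CPM and at 468 ± 69.5 against 667 ± 193 CPM (SD, n = 3 each). Their log2 fold changes were +0.58 (SE 0.33) and +0.51 (SE 0.29). The Arid4a estimate was +0.35 without IPMK cKO replicate 1, and that of Arid4b was +0.28 without IPMK cKO replicate 2. The list median was +0.03 without IPMK cKO replicate 1. Of the histone chaperones shared by SIN3 and NuRD, Rbbp7 had a log2 fold change of −0.77 (SE 0.50) and Rbbp4 one of +0.08 (SE 0.29). The Rbbp7 estimate was −0.33 without wild type replicate 1, its highest library, −0.42 without IPMK cKO replicate 1, its lowest, and +0.03 without both. Leaving out IPMK cKO replicate 1 gave +0.26 for Rbbp4, and leaving out replicate 2 of that group gave −0.09.

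NuRD gave 9 tested genes of 10 listed, 5 above 0 and 4 below (median +0.03). The remodelling ATPase Chd4 had 3378, 3850 and 4223 counts in wild type against 8856, 4447 and 5463 in IPMK cKO, and its groups did not overlap in CPM. Means were 457 ± 61.8 CPM and 794 ± 392 CPM (SD, n = 3 each), with a log2 fold change of +0.80 (SE 0.34), unadjusted p = 0.0414 and an edgeR adjusted p of 0.9999. Most of that difference lay in IPMK cKO replicate 1: without it the Chd4 estimate was +0.31. Its paralogue Chd3, the most abundant NuRD gene, had +0.50 (SE 0.37), and −0.08 without both libraries numbered 1.

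Of the CoREST list 9 of 10 genes were tested, 3 with estimates above 0 and 6 below (median −0.21), while Rcor1 stood at +0.42. Gse1 had a log2 fold change of −0.67 (SE 0.45), which rested on wild type replicate 1: that library was at 115 CPM, the other 2 were at 55.9 and 44.9 CPM, and the estimate without it was −0.16. Phf21a, the most abundant of the list, had −0.25 (SE 0.27). The MiDAC and MIER lists, whose scaffolds also hold Hdac1 and Hdac2, had 4 of 6 estimates above 0 (median +0.05). Their smallest p-values were those of Mier3 (+1.09, SE 0.59) and Mier1 (+0.53, SE 0.29). With 1 library left out the Mier3 estimate ran from +0.68 to +1.73, the lowest without IPMK cKO replicate 2 (+0.70 without wild type replicate 1) and the highest without wild type replicate 2.

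All 8 other histone deacetylases had estimates above 0 (median +0.54), and the groups overlapped for each. Hdac7, a class IIa enzyme abundant in T cells, was at 584 ± 141 CPM in wild type against 674 ± 373 CPM in the cKO group (SD, n = 3 each; log2 fold change +0.21, SE 0.38). Hdac6, the cytoplasmic tubulin deacetylase, had +1.25 (SE 1.07) and Hdac9 +1.63 (SE 1.47). Without IPMK cKO replicate 1 these were +0.43 and −0.34, and that of Hdac7 was −0.36. The shared direction rested on IPMK cKO replicate 1: without it 3 estimates were above 0 and 5 below, with a median of −0.35. The 9 histone acetyltransferases, the opposing enzymes, had 5 estimates above 0 and 4 below (median +0.05). Crebbp, a coactivator acetyltransferase, was higher in every IPMK cKO library, at 339 ± 43.4 against 459 ± 71.3 CPM (SD, n = 3 each; log2 fold change +0.44, SE 0.26). Kat6b had +0.70 (SE 0.44), and +0.47 without IPMK cKO replicate 1.

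**Figure D4:**
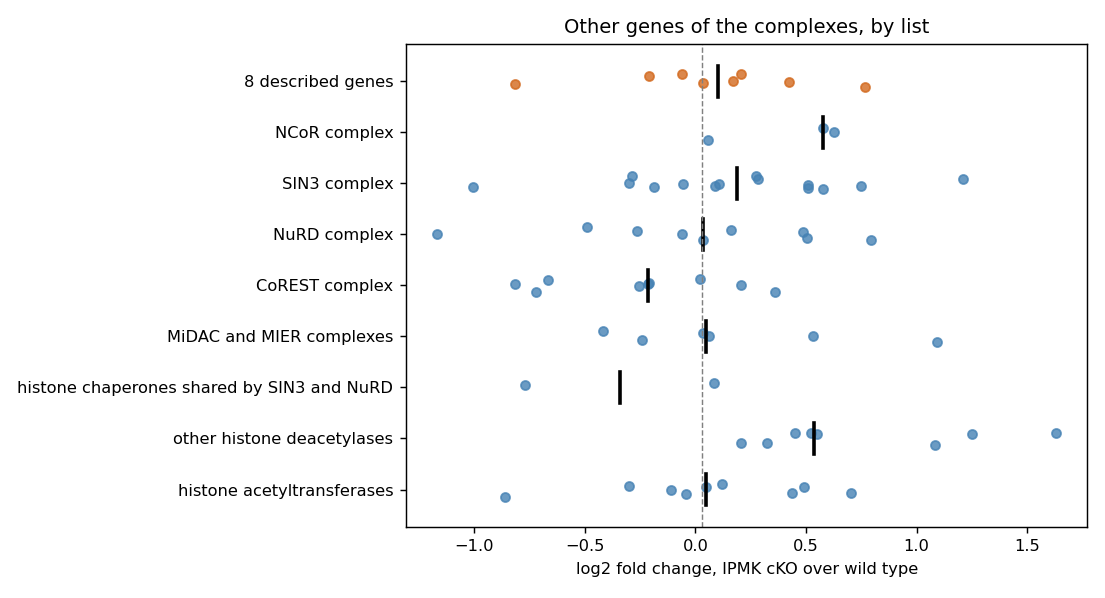
Log2 fold change of IPMK cKO over wild type (x) for the 8 described genes (orange) and each tested gene of 8 lists (blue), with the list median as a black bar and the median of all genes tested (+0.03) as a dashed line. Points of most lists lie on both sides of the dashed line, while those of the other histone deacetylases lie above it with all 6 libraries.

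In samples of pooled cells, fewer cells of a type and less RNA per cell cannot be told apart, which holds for every level above. IPMK cKO replicate 1 was the lowest library for Ncor1, Tbl1xr1 and Mta2 and the highest for Hdac2, Hdac3 and Sin3a. The part of its other differences from the remaining libraries in these values was not tested.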

How the data were processed

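RNA was extracted with Trizol from sorted Treg and made into QuantSeq 3′ libraries, per the labels' protocols. Each deposited file gives raw counts of reads by gene symbol, unnormalized, per the file headers and the values. Per the submitters' processing notes, Bowtie2, edgeR, mm10 and hg19 were involved, with no stated role. The counting program, annotation and strand setting were not given in the sources used here.

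Groups follow the titles and genotype labels. The test was run in edgeR 4.0.16 (R 4.3.3): TMM scaling, filterByExpr (minimum count 10), quasi-likelihood test of IPMK cKO against wild type over all 10475 genes, Benjamini-Hochberg adjustment, threshold 0.05, two-sided. The SE is the estimate over the square root of F, and intervals use the fit's degrees of freedom. Levels are CPM on TMM-scaled sizes. Alternatives were DESeq2 1.42.0, limma-voom (limma 3.58.1), other scalings, filters and fits, a replicate block and leaving out libraries. Removing both libraries numbered 1 was added after seeing the data.

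The members and lists were chosen with earlier results of these data known. Genes named were the members, Ipmk, the 2 smallest p-values and the most abundant gene of each list, markers, and the genes most like the deacetylases; a few genes this rule selects are not reported here. Paralogues were added after their values were seen. A total of 79 entries share 35 symbols and were kept apart, none of them members. Depth was 7464546 to 8980395 counts per library. The Clopper-Pearson intervals of the shares and the limit for a count of 0 (3 counts) cover counting error only. Coordinates are from GENCODE M21.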

Additional observations from a re-analysis of the deposited data

How the results depend on the processing

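No member was called under any of the 16 alternatives, and Hdac2, Hdac3, Tbl1xr1, Rcor1 and Mta2 kept the sign of their estimates in all of them. The lowest adjusted p of any member was 0.776, for Tbl1xr1 without IPMK cKO replicate 2. Over all genes edgeR called 0, DESeq2 called 3 (S100a6, S100a11 and Smpdl3b, all lower), and 268 had an unadjusted edgeR p under 0.05. Leaving out 1 library gave 0 to 1 calls, and leaving out both libraries numbered 1 gave 1. The gene was Gdpd3 (lower), called when IPMK cKO replicate 1 was left out, alone or with wild type replicate 1. With 1 library left out the log2 fold changes ran from −0.059 to 0.27 for Hdac1, −0.27 to 0.064 for Ncor1 and −0.15 to 0.29 for Sin3a. They ran from −0.11 to 0.81 for Gps2, −0.34 to 2.16 for Hdac9, −0.36 to 0.44 for Hdac7 and −0.094 to 0.26 for Rbbp4. The cause was not tested. Without both libraries numbered 1 the estimates of opposite sign were 0.068 for Ncor1, −0.17 for Sin3a, 0.018 for Gse1, 0.032 for Rbbp7, −0.084 for Chd3, −0.33 for Hdac9 and −0.16 for Hdac7. Sin3a was also below 0 with limma-voom (−0.067) and upper quartile scaling (−0.030). The Hdac3 estimate was +2.80 with limma-voom and +1.54 without wild type replicate 2. The difference in the Hdac2 share, IPMK cKO minus wild type, was 0.961 percentage points and ran from −2.72 to 5.81 with 1 library left out.

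With the replicate number as a block, 0 genes and 0 members were called, and the estimate was −0.030 for Sin3a and +1.76 for Hdac3. Deviations from the group mean correlated at 0.0454, 0.0877 and 0.0265 between same-numbered libraries. By these small values alone each library was most like its own number. By log2 CPM itself, wild type replicate 1 and IPMK cKO replicate 1 were the least alike pair (r = 0.659). The labels do not tie the numbers to a shared animal or day, and whether they mark pairs was not tested. Of the 8 members Hdac3 had the fewest counts, 0 to 85 per library, and the widest interval.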
